A study of Mus musculus with 16 samples.

Results

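The genes described here are 50 mouse homeobox genes outside the Hox, Pax and Nkx families: 12 LIM homeobox genes, the 6 Dlx and 6 Irx genes, and 26 others such as Otx, Emx, En, Gsx, Msx, Meis, Bar, Alx and Pitx genes. They were taken from a list of names that was chosen with earlier results of these data known. All 50 were found among the 21631 protein-coding genes of the autosomes and X. The measured value is the H3K27me3 signal called over each of them. The cells are CCN6KOT, mouse breast tumour cells of a CCN6 knockout that the labels describe as spindle metaplastic, so both groups lack CCN6. Control cells were transduced with a control construct (PPGS in the labels; the design text calls them parental). The other cells were transduced with dnTCF4, which blocks the factor that beta-catenin needs to activate its target genes. Both lentiviral lines were selected with puromycin, and no source used here gives the promoter that drives dnTCF4. The 4 control and 4 dnTCF4 libraries for H3K27me3 are used here, and 8 IgG libraries were not analysed here. The labels do not say whether libraries numbered 1 to 4 came from separate cultures or how many lines were transduced, so a p-value here covers only library-to-library variation, part or all of which may be technical.

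Homeobox genes encode transcription factors that bind DNA through a homeodomain and set the identity of tissues in the embryo. H3K27me3 is laid down by the Polycomb complex PRC2, whose enzyme is EZH2, and marks genes that are held silent. In adult cells that do not use them, developmental homeobox genes are among the best known carriers of this mark, often in broad domains that cover the promoter and its surroundings. Control and dnTCF4 cells were compared to see what the beta-catenin and EZH2 pathway does to the mark in metaplastic tumour cells.

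A gene is called marked in a library when a deposited peak overlaps its body or the 2 kb on either side by at least 1 base. The peak lists differ greatly in length, from 191 peaks (dnTCF4 2) to 54070 (control 3), and sequencing depth is unknown, so a gene without a peak may still carry the mark. Nor can fewer cells with the mark be told apart from less mark per cell. Of the marker genes looked at for the labelled cell type, Epcam, an adhesion protein of epithelia, had a peak in all 8 libraries, and 4 of 7 epithelial, 2 of 3 basal, 2 of 3 immune, 0 of 2 endothelial and 0 of 6 mesenchymal marker genes had one in any library. Peaks show a mark and not RNA, so the cell type itself could not be checked.

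The homeobox genes carried peaks more often than other genes in the 4 longest lists. In control 3, 28 of the 50 were marked (56%, 95% Wilson interval 42.3% to 68.8%), where 20.1% of all protein-coding genes were. Control 4 marked 19 (38%, 25.9% to 51.8%) where 12.5% of all genes were marked, and dnTCF4 1 marked 22 (44%, 31.2% to 57.7%) where 13.7% were. In dnTCF4 3, 9 were marked (18%, 9.77% to 30.8%) beside 5.13% of all genes. The share among homeobox genes was 2.80, 3.06, 3.23 and 3.53 times that among other genes in control 3, control 4, dnTCF4 1 and dnTCF4 3. In dnTCF4 4 the 2 marked genes (4%, 1.10% to 13.5%) lay near the background of 2.41%. Control 1, control 2 and dnTCF4 2, the shortest lists, marked 0 of 50 each (0% to 7.13%), beside backgrounds of 0.675%, 1.06% and 0.254%. The intervals cover counting error only and treat neighbouring genes as independent. The list was chosen with earlier results of these data known, so the intervals are no test of it against the background. Windows of the homeobox genes were shorter than those of other genes (median 12.3 and 21.3 kb). The part of window length in the shares was not tested. Peaks covered 7.03% of the summed windows in control 3 and 1.87% of those of other genes, 1.67% and 0.605% in control 4, and 3.08% and 0.650% in dnTCF4 1.

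**Figure D1:**
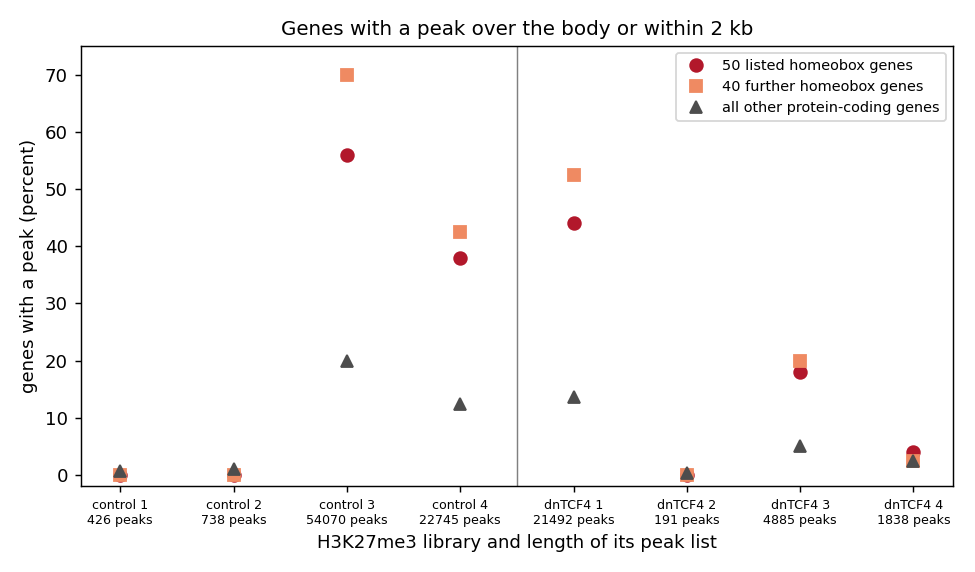
Percent of genes with a peak over the body or within 2 kb (y axis) in each of the 8 libraries (x axis, with the length of each list); circles are the 50 homeobox genes, squares 40 further homeobox genes and triangles all other protein-coding genes. Circles and squares lie far above the triangles in control 3, control 4, dnTCF4 1 and dnTCF4 3, and at 0 in the 3 shortest lists.

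The same genes recurred across libraries. At least 1 library marked 30 of the 50 genes, against 21.4% of all genes. In both groups, 2 or more libraries marked 9 of them, against 5.02%. The same 9 were the genes marked in 4 or more libraries (5.18% of all genes), and 2 reached 5 libraries (2.31% of all genes). Control 3, control 4 and dnTCF4 1 together marked 15, against 10.1% of all genes. Coverage of at least 10% of the window was reached by 16 genes in control 3 (7.55% of all genes), 3 in control 4 (2.56%), 7 in dnTCF4 1 (3.07%) and 1 in dnTCF4 3 (0.55%). All 19 genes marked in control 4 were also marked in control 3, as were 20 of the 22 of dnTCF4 1, and the 3 longest lists each held all 9 genes of dnTCF4 3. Among all genes, control 4 marked 2696 and dnTCF4 1 marked 2962, and 2181 were in both and in control 3. Overlap between these lists was thus common among all genes. The 2 genes with a peak in dnTCF4 1 alone were Barhl1 and Prrx1. Without control 3 or without control 4 no gene reached 2 libraries in each group, since 2 control lists marked none. Without dnTCF4 1 or without dnTCF4 3 the count was 2 (Lhx3 and Alx4). Without the 3 shortest lists the counts of 30 and 9 were unchanged; that alternative was added once the list lengths had been seen. The 50 genes fall into 42 loci when genes within 1 Mb are joined, and 28 of these loci held a marked gene. No single peak overlapped the windows of 2 listed genes at once.

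**Figure D2:**
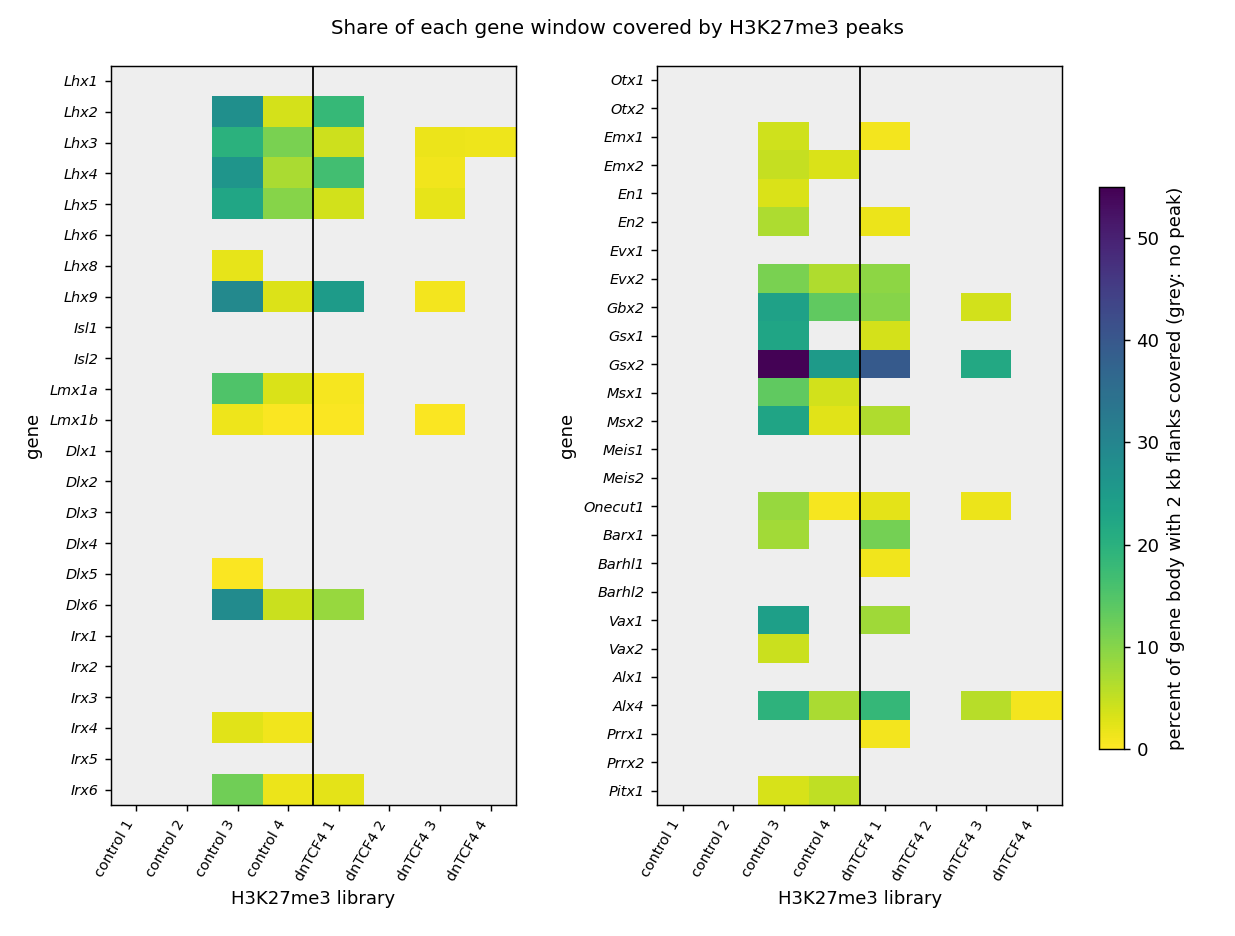
Percent of the gene body with 2 kb on either side that is covered by peaks, as colour, for each of the 50 genes (rows) in each library (columns; the line parts control from dnTCF4). Colour is confined to control 3, control 4, dnTCF4 1, dnTCF4 3 and, for Lhx3 and Alx4, dnTCF4 4, and it is deepest for Gsx2.

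The LIM homeobox genes, whose products pair a homeodomain with LIM domains that recruit cofactors, made up 5 of the 9 genes marked in 2 or more libraries of both groups. Of the 12 LIM genes, control 3 marked 8, control 4 and dnTCF4 1 marked 7 each, dnTCF4 3 marked 5 and dnTCF4 4 marked 1. Lhx3 (chr2:26200212-26208249), a factor of the pituitary and of motor neurons, was marked in 5 libraries, with 19.8% of its window covered in control 3, 11.2% in control 4, 4.26% in dnTCF4 1, 1.68% in dnTCF4 3 and 1.45% in dnTCF4 4. Its relative Lhx4 (chr1:155698031-155751726), which acts with it in the pituitary, had 26.3%, 7.08% and 16.6% in the first 3 of these libraries and 692 covered bases in dnTCF4 3. Lhx5, a forebrain factor, had 22.5%, 9.98%, 3.80% and 2.09% in the same order. For all of these genes control 3 was highest and dnTCF4 3 low, and the groups overlapped, since control 1 and control 2 were at 0.

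Lhx9 and Lhx2 had wide coverage in 1 library of each group. Lhx9 (chr1:138825186-138848839), needed for gonad formation, was covered to 29.0% in control 3 and 24.9% in dnTCF4 1, but to 2.92% in control 4 and 0.940% in dnTCF4 3. Lhx2 (chr2:38339271-38369737), a factor of the developing cortex, eye and hair follicle, was covered to 27.7% in control 3, 3.63% in control 4 and 18.2% in dnTCF4 1, and its widest single peak spanned 5406 bases. Among the paired genes Lmx1a and Lmx1b, which act in the roof plate, midbrain and limb, Lmx1a had 27 peaks over its 164.5 kb window in control 3 (15.1% covered), 10 in control 4 (3.13%) and 4 in dnTCF4 1 (0.822%). Lmx1b had a peak in 4 libraries, but these covered only 1.33%, 0.421%, 0.222% and 0.215% of its window in control 3, control 4, dnTCF4 1 and dnTCF4 3. Lhx8, a factor of forebrain cholinergic neurons, had 1 peak in control 3 (1.94%). Lhx1, Lhx6, Isl1 and Isl2 had no peak in any library. The LIM genes thus ranged from broad coverage through small peaks to none.

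The Dlx genes pattern the jaw, the limb and forebrain interneurons and lie in 3 adjacent pairs. At least 1 library marked 2 of the 6 (33.3%), against 21.4% of all genes. Dlx6 (chr6:6863334-6867970) was covered to 28.5% in control 3, 4.35% in control 4 and 8.57% in dnTCF4 1. Its neighbour Dlx5 had only the edge of a peak within 2 kb, 25 bases in control 3. The antisense genes Dlx6os1 and Dlx6os2 share the window of Dlx6, and a peak cannot be assigned to 1 of them. Dlx1, Dlx2, Dlx3 and Dlx4 had no peak in any library.

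The Irx genes, factors of neural, heart and limb patterning, lie in 2 clusters of 3, and in each cluster only the gene at the highest coordinate was marked. That made 2 of 6 genes (33.3%), against 21.4% of all genes. Irx6 on chromosome 8 was covered to 11.9% in control 3, 1.63% in control 4 and 2.25% in dnTCF4 1. Irx4 on chromosome 13 was covered to 2.37% in control 3 and 1.21% in control 4. Irx1, Irx2, Irx3 and Irx5 had no peak in any library.

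Genes of the forebrain, midbrain and ventral nervous system held the best covered member. Gsx2 (chr5:75075601-75077893), which specifies the ventral telencephalon, was covered to 54.7% in control 3 and 24.96% in control 4, and to 39.5% in dnTCF4 1 and 21.9% in dnTCF4 3. It was the most covered of the 50 genes in each of these 4 libraries. When peaks up to 3 kb apart are joined, the domain reaching its window measured 25.1 kb in control 3 and 34.2 kb in dnTCF4 1. Gsx1, its relative, was covered to 22.7% in control 3 and 3.50% in dnTCF4 1. Gbx2, which positions the boundary of midbrain and hindbrain, was covered to 23.5%, 13.4%, 10.0% and 3.87% in control 3, control 4, dnTCF4 1 and dnTCF4 3. These 3 genes are short, with windows of 6.25 to 7.22 kb, so a few kilobases of peak fill much of the window.

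Evx2, next to the Hoxd cluster, was covered to 11.1% in control 3, 6.60% in control 4 and 9.45% in dnTCF4 1, and Evx1, next to the Hoxa cluster, had no peak. En2, a midbrain and cerebellum factor, had 6.86% in control 3 and 1.52% in dnTCF4 1, and En1 had 3.02% in control 3. Emx1 and Emx2, factors of the cortex, were lightly covered, Emx1 with 3.99% in control 3 and 0.955% in dnTCF4 1 and Emx2 with 4.81% in control 3 and 3.02% in control 4. Otx1 and Otx2, factors of the fore- and midbrain, had no peak in any library. Relatives differed in the Evx pair, where 1 gene was marked, and were alike in the Otx pair, where neither was.

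Genes of mesenchyme, limb and gut were mixed. Alx4 (chr2:93642434-93681341), a limb and craniofacial factor, was marked in 5 libraries, with 19.4% of its window covered in control 3, 6.99% in control 4, 18.4% in dnTCF4 1, 5.81% in dnTCF4 3 and 0.946% in dnTCF4 4. Msx2, a target of BMP signalling in skull and tooth, was covered to 22.9% in control 3, 2.36% in control 4 and 6.52% in dnTCF4 1, and Msx1 to 13.5% in control 3 and 3.66% in control 4. Onecut1, a liver and pancreas factor, was marked in 4 libraries with 8.43%, 0.652%, 2.21% and 1.71% covered in control 3, control 4, dnTCF4 1 and dnTCF4 3. Of these 4 genes, Alx4 and Onecut1 were marked in at least 2 libraries of both control and dnTCF4 cells.

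Pitx1, a hindlimb factor, was covered to 3.38% in control 3 and 5.27% in control 4. Barx1, a factor of stomach mesenchyme and teeth, was covered to 7.68% in control 3 and 11.4% in dnTCF4 1, and Vax1, an eye and optic nerve factor, to 23.9% and 7.84%. Vax2 had 4.35% in control 3. Prrx1, a limb and mesenchyme factor, had 1 peak in dnTCF4 1 (1.04%), as had Barhl1 (1.17%), a neural factor. Meis1 and Meis2, cofactors of Hox proteins with windows of 143.2 and 210.3 kb, had no peak in any library, and neither had Alx1, Prrx2 and Barhl2. In all, 20 of the 50 genes had no peak, where 78.6% of all genes had none.

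Peaks at these genes flanked the promoters and almost never covered them, and promoter peaks were rare among all genes too. RefSeq promoters (GRCm38.p6, 250 bases before to 50 after a start) were matched for 36 of the 50 genes. Of these 36, 1 had a peak over a promoter, Lhx9, in control 3 and dnTCF4 1, where 1.90% and 0.816% of the 17274 genes with a promoter did. No annotated start of the 36 genes lay inside a peak in control 3, control 4, dnTCF4 1 or dnTCF4 3. That count was not made for other genes. Just after their starts, peaks covered on average only 1.16%, 0.293%, 0.397% and 0.0760% of bases in these libraries. The absence therefore does not set the homeobox genes apart. Within 5 kb of a start, however, 19 of the 36 had a peak in control 3 (52.8%, against 18.1% of other genes), 14 in control 4 (38.9% against 10.0%), 18 in dnTCF4 1 (50% against 11.9%) and 6 in dnTCF4 3 (16.7% against 3.83%). Counted within 1 kb of a start, the numbers were 7 (19.4%, against 7.12% of other genes), 2 (5.56% against 3.08%), 4 (11.1% against 4.44%) and 1 (2.78% against 1.04%), so control 4 and dnTCF4 3 rest on 1 or 2 genes. Gsx2 had its nearest peak 0.374 kb from the start in control 3, 0.839 kb in control 4, 0.956 kb in dnTCF4 1 and 0.968 kb in dnTCF4 3. Lhx4 had peaks on both sides of its listed start, 1.60 kb upstream and 1.45 kb downstream in control 3 and 1.52 and 1.60 kb in dnTCF4 1. That start (chr1:155742027, minus strand) lies inside the annotated gene, whose 5′ end is at 155751726.

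Averaged over the 36 genes, coverage fell towards the start from both sides. In control 3 it was 4.27% within 1 kb of the start, 13.7% from 1 to 5 kb upstream and 12.9% from 1 to 5 kb downstream. In dnTCF4 1 the values were 1.67%, 9.53% and 9.49%, and in control 4 they were 1.04%, 4.70% and 3.59%. In the first 500 bases after the start coverage was 0 in all 3 libraries. Other genes had a shallower profile with a dip at the same place, 1.97% within 1 kb and 4.00% and 3.11% on either side in control 3. The dip was thus present in both groups of genes and in libraries of both conditions.

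**Figure D3:**
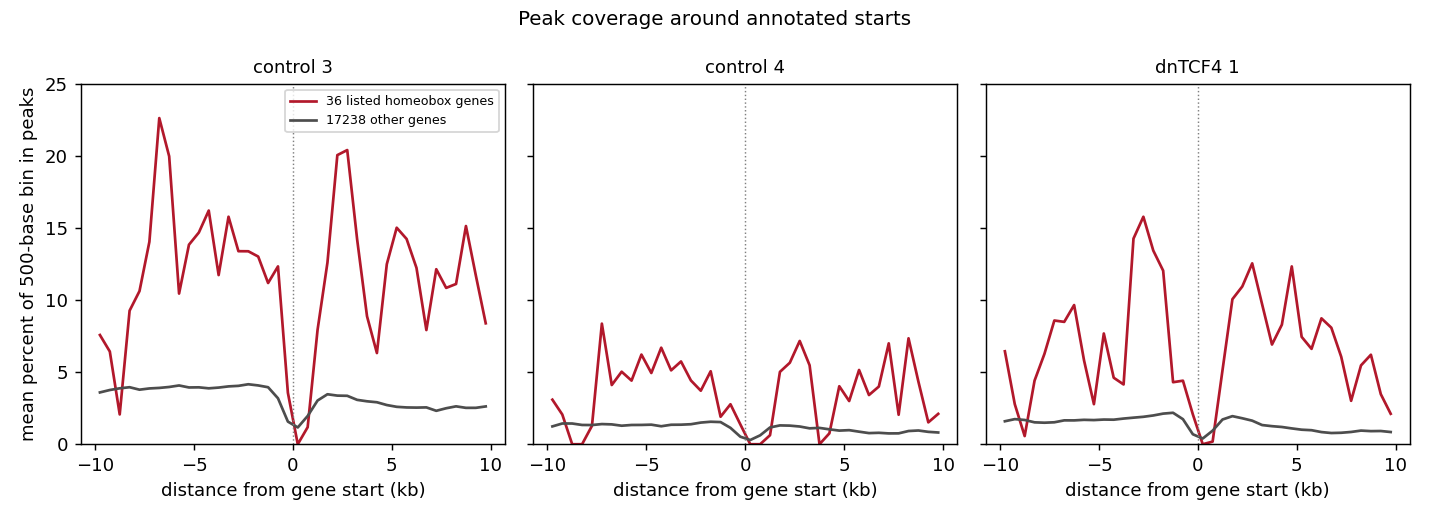
Mean percent of each 500-base bin covered by peaks (y axis) against distance from the annotated start (x axis, kb, upstream to the left), for 36 homeobox genes and 17238 other genes, in control 3, control 4 and dnTCF4 1. Coverage of the homeobox genes is 0 in the bin just after the start and rises to 22.6%, 8.36% and 15.8% in the highest bin of the 3 libraries.

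The listed start of Lhx9 lies inside the annotated gene and not at its 5′ end. The promoter sequences show the range of CG dinucleotide content from the 1 covered promoter to bare ones, with each CG in capitals (motif CG; its reverse complement is again CG). Lhx9 is the covered promoter, with 6 CG in 300 bases, a content it shares with the uncovered promoter of Prrx1, and Lhx8 has 4 CG and no promoter peak. Gsx2 is the gene with the greatest coverage and has a bare promoter with 17 CG. Dlx2 and Barhl2 had no peak over their windows and have 29 and 42 CG. Lhx9 and Barhl2 follow the rule set for printed promoters, and Gsx2 and Dlx2 were chosen after their values were seen. Sequences are from RefSeq, GRCm38.p6, written 5′ to 3′ on the strand of the gene.
Lhx9 (chr1:138842395-138842694, minus strand): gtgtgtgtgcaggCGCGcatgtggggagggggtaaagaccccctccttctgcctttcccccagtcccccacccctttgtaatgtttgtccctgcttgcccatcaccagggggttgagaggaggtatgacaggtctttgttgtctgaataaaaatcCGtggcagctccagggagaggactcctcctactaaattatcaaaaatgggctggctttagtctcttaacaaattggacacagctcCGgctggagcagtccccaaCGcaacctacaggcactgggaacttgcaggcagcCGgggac
Gsx2 (chr5:75075351-75075650, plus strand): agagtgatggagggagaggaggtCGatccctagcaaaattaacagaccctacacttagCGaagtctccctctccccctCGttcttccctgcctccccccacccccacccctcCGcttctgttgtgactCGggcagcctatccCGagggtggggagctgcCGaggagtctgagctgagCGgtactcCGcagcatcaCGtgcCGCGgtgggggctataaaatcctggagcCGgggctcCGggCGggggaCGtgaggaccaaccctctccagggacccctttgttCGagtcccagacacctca
Dlx2 (chr2:71546705-71547004, minus strand): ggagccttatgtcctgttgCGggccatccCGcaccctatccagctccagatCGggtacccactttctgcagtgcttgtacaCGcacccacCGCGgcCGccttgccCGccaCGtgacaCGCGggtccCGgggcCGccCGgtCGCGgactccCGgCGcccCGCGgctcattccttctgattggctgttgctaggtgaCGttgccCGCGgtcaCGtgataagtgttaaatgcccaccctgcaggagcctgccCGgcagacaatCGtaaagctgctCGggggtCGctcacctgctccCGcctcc
Barhl2 (chr5:106458117-106458416, minus strand): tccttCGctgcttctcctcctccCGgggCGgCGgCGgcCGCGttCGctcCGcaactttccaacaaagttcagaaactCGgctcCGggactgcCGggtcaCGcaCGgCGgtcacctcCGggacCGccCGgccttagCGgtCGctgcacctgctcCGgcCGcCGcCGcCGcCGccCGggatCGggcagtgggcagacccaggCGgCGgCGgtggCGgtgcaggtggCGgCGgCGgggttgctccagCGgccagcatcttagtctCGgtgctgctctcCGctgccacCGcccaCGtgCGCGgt

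Taking the most CG-rich promoter of each gene, the 36 homeobox genes had a median of 23 CG per 300 bases, where all 17274 genes had a median of 15. At least 20 CG were found in 20 of the 36 (55.6%), against 39.4% of all genes. Marked and unmarked homeobox genes were close in this respect, with medians of 22.5 CG (22 genes) and 24 CG (14 genes). Across all genes, peaks over promoters became rarer with CG content. In control 3, 3.66% of promoters with 0 to 4 CG had a peak, 3.01% of those with 5 to 9, 0.611% of those with 10 to 19 and 0.162% of those with 20 or more. From 1 to 5 kb from the start, coverage differed far less between the first and the last of these classes (3.55% and 3.25%). In dnTCF4 1 promoter peaks fell from 1.17% to 0.0882% between the same classes, and in control 4 from 1.21% to 0.0294%. In dnTCF4 1 the class with 5 to 9 CG was highest, at 1.59%. The part of base composition in the bare promoters of the homeobox genes was not tested.

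Some homeobox genes without a peak lay near one. Of the 20 unmarked genes, 10 had a peak within 10 kb of the gene body in control 3, control 4 or dnTCF4 1, where 15% of all unmarked protein-coding genes had one. In the same libraries 4 had none within 50 kb (Irx1, Irx2, Otx1 and Alx1), where 54.5% of all unmarked genes had none. Dlx2 had its nearest peak 3.78 kb before its start in control 3, 3.59 kb in control 4, 3.95 kb in dnTCF4 1 and 3.77 kb in dnTCF4 3. Its flanks from 2 to 50 kb were covered to 14.5%, 7.37% and 14.3% in the first 3 of these libraries. The peaks near the Dlx1 and Dlx2 pair lay on the Dlx2 side, and the bodies of both genes stayed bare. Over 2 to 50 kb, flanks were covered on average to 11.01% for the 30 marked genes, 2.54% for the 20 unmarked and 3.35% for all other genes in control 3. In dnTCF4 1 these values were 3.60%, 1.65% and 1.33%. Over that wider distance 7 of the 20 unmarked genes had a flank peak in control 4 and 8 in dnTCF4 1, close to the 35.9% and 38.6% of other genes. In control 3 the count was higher, 14 of 20 against 52.7% of other genes. Mean flank coverage there was lower than that of other genes, while the median was higher (0.971% against 0.267%). The other genes include marked ones, so these flank values do not set unmarked homeobox genes against unmarked genes alone. With windows extended by 10 kb, 40 of the 50 genes were marked in at least 1 library, against 33.2% of all genes, Dlx2, Meis2, Otx2 and Evx1 being among the 40.

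**Figure D4:**
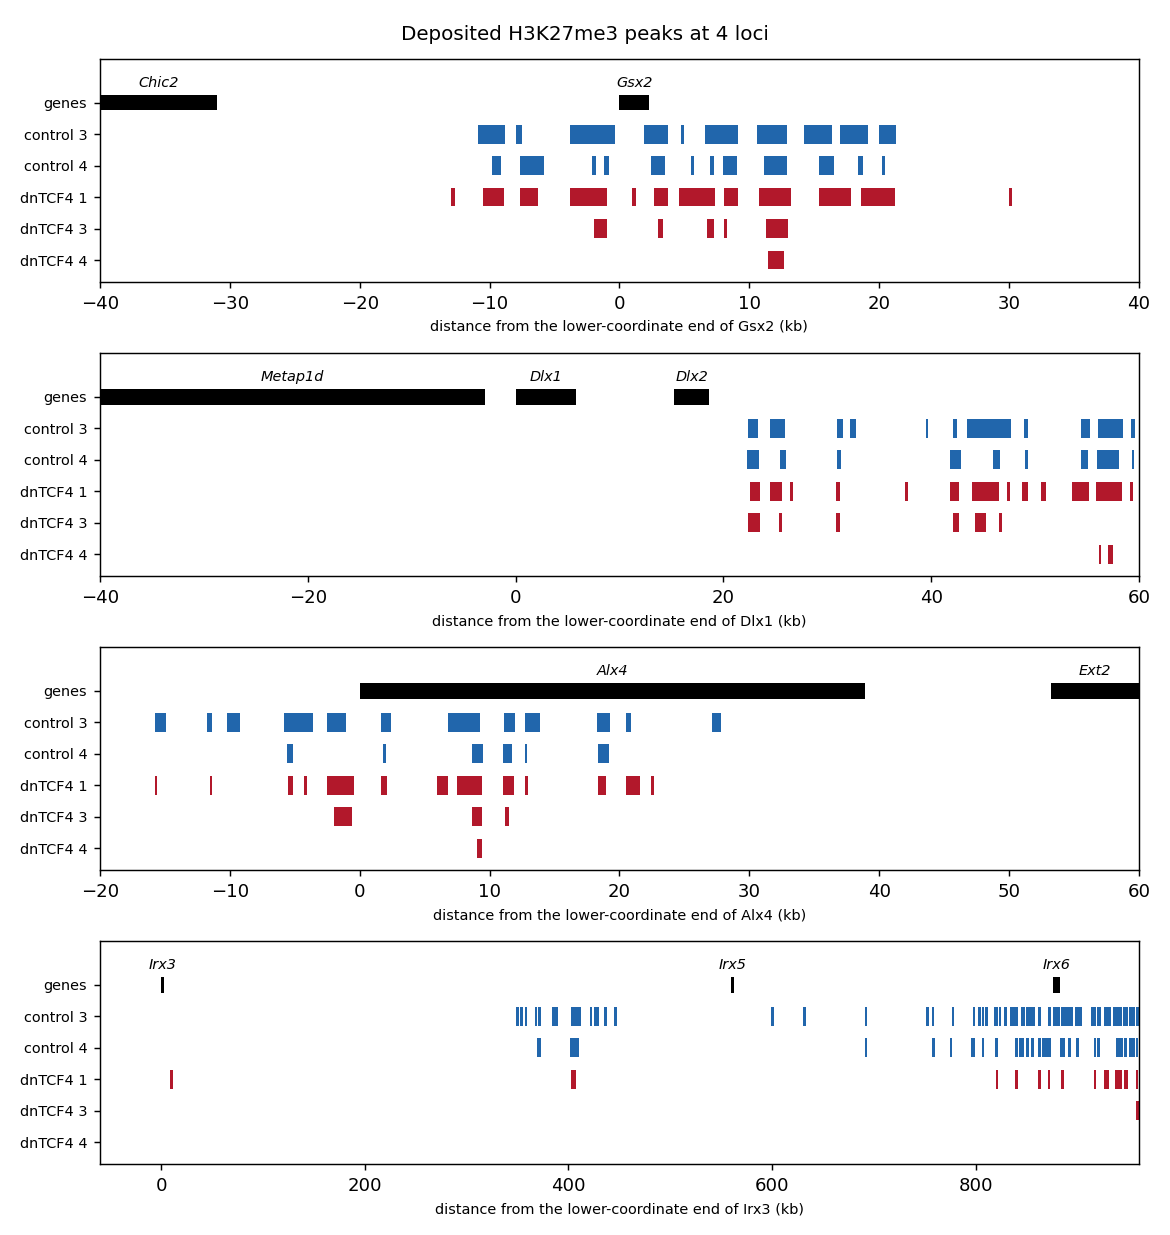
Deposited peaks (bars; blue control, red dnTCF4) in the 5 longest lists around Gsx2, the Dlx1 and Dlx2 pair, Alx4, and Irx3, Irx5 and Irx6, against distance in kb from the lower-coordinate end of the first named gene; black bars are protein-coding genes, and peaks too narrow to see are drawn wider than they are. Peaks stand on both sides of Gsx2, on the Dlx2 side of its pair, in the lower-coordinate part of Alx4, and around Irx6 and between Irx3 and Irx5, but not over Irx3 or Irx5.

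In the cluster of Irx3, Irx5 and Irx6, control 3 held 67 peaks over the mapped stretch, control 4 held 37 and dnTCF4 1 held 18. In control 3 and control 4 they formed 1 group between Irx3 and Irx5 and a larger one around Irx6. The flanks of Irx6 were covered to 30.3% in control 3, the highest of the 50 genes, while those of Irx5 were covered to 0.226% and those of Irx3 to 0. En2, Vax1 and Emx2 also had flanks covered more than their own windows, with 26.6%, 26.4% and 23.2% in control 3. Lhx4 stood at the other end, with 26.3% of its window and 1.16% of its flanks covered.

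**Figure D5:**
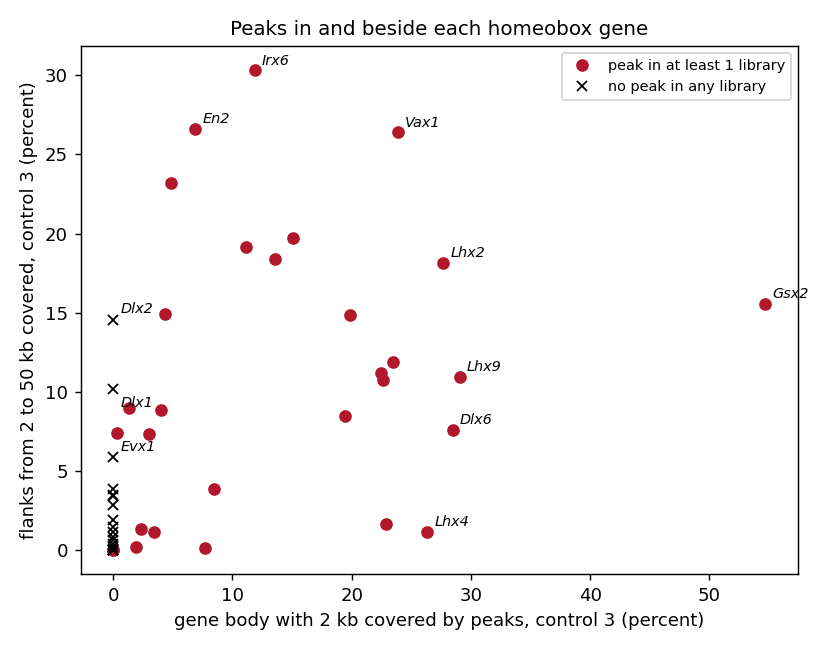
Percent of each gene's body with 2 kb covered by peaks (x axis) against percent of its flanks from 2 to 50 kb covered (y axis), both in control 3, with 1 point per homeobox gene; crosses are the 20 genes without a peak in any library. Gsx2 lies far right at 54.7%, Irx6 at the top at 30.3%, and Dlx2 is the highest cross at 14.5%.

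The peaks at these genes were close in strength to other peaks of the same lists. The deposited fold enrichment, the authors' own value per peak, had a median of 3.09 for the 112 peaks at homeobox genes in control 3 and 3.01 for its other peaks, 3.45 and 3.39 in control 4 (46 peaks), and 3.53 and 3.50 in dnTCF4 1 (58 peaks). Median widths were 585.5 and 595 bases in control 3 and 500 and 485 in dnTCF4 1. In control 4 the peaks at homeobox genes were narrower (335 against 471 bases). The highest −log10 q at any of the 50 genes was 3.87, at Lmx1a in control 4. With a minimum −log10 q of 2, 16 genes were marked in at least 1 library, and with a minimum of 5 none was. Per library, a minimum of 2 marked on average 9% of them in control and 3.5% in dnTCF4 libraries. For all genes these shares were 3.17% and 1.77%. A minimum of 5 marked only 0.139% and 0.113% of all genes, so 0 of 50 lay near that background. Restricted to the 1000 peaks of highest −log10 q in each of the 5 longest lists, the libraries marked 0 to 2 of the 50 genes each, a mean share 0.714 percentage points above that of other genes, where the same 5 lists at full length gave 21.3. The 4 genes still marked there were Lmx1a, Lhx3, Lmx1b and Alx4. Among the top-ranked peaks the share of marked homeobox genes was thus near the background.

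The control and dnTCF4 libraries did not separate at these genes. The percent of homeobox genes marked was 0, 0, 56 and 38 in control 1 to 4 (mean 23.5 ± 28.1, SD, n = 4) and 44, 0, 18 and 4 in dnTCF4 1 to 4 (16.5 ± 19.9, SD, n = 4). The difference of -7 percentage points was smaller than the spread within either group, and other genes differed by -3.19 points (8.54 ± 9.38% and 5.34 ± 5.86%, SD, n = 4 each). Without control 3 the difference turned to 3.83 points, and with 1000 peaks per library to 0.667. It was -25 points without the 3 shortest lists, -16.2 without dnTCF4 1 and -14.8 without control 1 or control 2. No test was made over the list as a whole.

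Gene by gene, Fisher's exact test of marked against unmarked libraries over all 21631 genes called 0 genes after Benjamini-Hochberg adjustment (0%) and 0 at an unadjusted p under 0.05, the lowest p being 0.143 where 4 libraries against 4 allow 0.0286. With that smallest p and adjustment over all genes, a call was hardly possible in this design. Irx4, Emx2, Msx1 and Pitx1 were marked in control 3 and control 4 and in 0 of 4 dnTCF4 libraries, a pattern held by 2% of all genes and, here, by 4 of 50 (Fisher's exact test, p = 0.429 and adjusted p = 1 for each). Irx4 was named beyond the rule of 3 genes, after its values were seen. The opposite pattern, at least 2 dnTCF4 and 0 control libraries, was held by 0 of the 50 and by 0.0601% of all genes. The exact permutation test of percent covered also called 0 genes after adjustment and 1 at an unadjusted p under 0.05, which was not a homeobox gene of the list (Nhsl2, higher in control, adjusted p = 1; 0.00462% of all genes).

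Control 4 and dnTCF4 1 have lists of near-equal length (22745 and 21492 peaks, 16.3 and 16.6 Mb covered) and can be set side by side, as 1 library of each group with no replicate check. They marked 19 and 22 of the 50 genes, 15 of them in common, which is 78.9% of the first and 68.2% of the second. Over all genes their totals were 2696 and 2962, and at least 2181 were shared. The overlap at the homeobox genes was thus no larger than that background. Peaks covered 23.3 kb of the homeobox windows in control 4 and 43.1 kb in dnTCF4 1. More bases were covered in dnTCF4 1 at 17 genes (9.46% of all genes) and in control 4 at 9 (6.53% of all genes). The wider coverage in dnTCF4 1 sat largely at Lhx9 (6873 against 808 bases), Lhx4 (9594 against 4082), Lhx2 (6280 against 1251) and Alx4 (7906 against 2998), while Lmx1a had more in control 4 (5150 against 1353). Control 3, of the same group as control 4, covered 8032, 15193, 9531 and 8325 bases at the first 4 of these genes. At each of them control 4 lay further from control 3 than from dnTCF4 1. The control 3 list is far longer (54070 peaks, 52.7 Mb), and the 4 genes were named for their gap between control 4 and dnTCF4 1. These distances therefore cannot compare the spread within a group with the difference between groups.

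A further set of homeobox genes was marked at similar shares. Of 40 such genes that are not in the list, control 3 marked 28 (70%), control 4 marked 17, dnTCF4 1 marked 21, dnTCF4 3 marked 8 and dnTCF4 4 marked 1. Gbx1, the relative of Gbx2, was marked in 5 libraries, and Pitx3, Tlx1 and Rax in 4 each. Of the genes of proteins that act with the LIM and Meis factors, 2 of 17 were marked in any library (11.8%), beside 21.4% of all genes. These were Lmo2, a LIM-only protein that binds the cofactor LDB1, in 2 control and 3 dnTCF4 libraries, and Pknox2 in 1 control library. Ezh2, the gene of the enzyme that writes the mark, had no peak in any library, which was so for 78.6% of all genes. Of 20 housekeeping genes, 0 had a peak, beside 21.4% of all genes.

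The counts also varied by chromosome, with few genes on each. All 6 on chromosome 1 were marked in at least 1 library, as were 5 of 6 on chromosome 5 and 4 of 5 on chromosome 6, while 0 of 5 on chromosome 11 were (Lhx1, Dlx3, Dlx4, Otx1 and Meis1). All genes of these chromosomes were marked at 28.9%, 25.1%, 19.3% and 21.9%. Chromosome 11 was therefore not short of marked genes as a whole. Chromosome 2, with the most homeobox genes of the list, had 6 of 11 marked.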

How the data were processed

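H3K27me3 was profiled by ChIPmentation, in which a transposase adds adapters to immunoprecipitated chromatin on the beads. MACS2 2.1.2, Bowtie2 2.3.4.1, SAMtools 1.2, Picard 2.20.2, bedtools 2.28.0, cutadapt and Trim Galore were used on build mm10, per the submitters' processing notes. No source used here gives the program options or says whether IgG entered peak calling. For each library the authors deposited 1 list of peaks, and peak names show that replicates were not pooled. Each deposited list gives a score, a fold enrichment ratio and −log10 p and −log10 q values per peak. The deposited score was 10 times the −log10 q, truncated, in all but 7 of 106385 peaks. Lists hold no read counts, so depth is unknown.

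Gene positions came from RefSeq (GRCm38.p6). Overlaps were computed in Python 3.11.15 with pandas 2.3.3 and SciPy 1.17.1, checked on simulated peaks. Single genes were tested with two-sided Fisher's exact tests and exact permutation tests over 70 assignments, adjusted by the Benjamini-Hochberg method over 21631 genes. Named genes are the 12 marked in the most libraries, up to 3 per direction with the largest group difference, the 5 best covered in control 3, all unmarked genes, and up to 4 per further list; values for the remaining marked genes were added after they were seen. The members and lists were chosen with earlier results of these data known. Alternatives changed windows, thresholds, overlap, list length, libraries and test. CG classes, distances to starts, flanks, the pair of lists of near-equal length and the Gsx2 and Dlx2 promoters were chosen after seeing the data. The result for 1 further gene list is not reported here.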

Additional observations from a re-analysis of the deposited data

Results flagged for a closer look

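A library far from the other 3 of its group, by Dixon's criterion, was found in 31 of the 66 groups of 4 values examined, where chance would flag about 1 in 20 groups of continuous values. That rate does not apply here: in 22 of the 30 single-gene cases below 3 of the 4 libraries were at 0, which puts the remaining library apart by construction, and in the other 8 cases 2 libraries were at 0. In the control group it was control 3, the longest list, in each case, for the percent of the window covered at Barx1 (7.68%), Dlx5 (0.302%), Dlx6 (28.5%), Emx1 (3.99%), En1 (3.02%), En2 (6.86%), Gsx1 (22.7%), Irx6 (11.9%), Lhx2 (27.7%), Lhx8 (1.94%), Lhx9 (29.0%), Msx2 (22.9%), Onecut1 (8.43%), Vax1 (23.9%) and Vax2 (4.35%). In the dnTCF4 group it was dnTCF4 1, also the longest list of its group, in each case, at Barhl1 (1.17%), Barx1 (11.4%), Dlx6 (8.57%), Emx1 (0.955%), En2 (1.52%), Evx2 (9.45%), Gsx1 (3.50%), Irx6 (2.25%), Lhx2 (18.2%), Lhx4 (16.6%), Lhx9 (24.9%), Lmx1a (0.822%), Msx2 (6.52%), Prrx1 (1.04%) and Vax1 (7.84%). The percent of all homeobox window bases covered in dnTCF4 1 (3.08%) stood apart in the same way. The part of list length in these values was not tested.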

How the results depend on the processing

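The adjusted test of control against dnTCF4 called 0 genes in each alternative run, which says nothing about stability, since the smallest p that 4 libraries a group allow (0.0286) can hardly pass adjustment over 21631 genes. The labels number both groups 1 to 4, and same-numbered libraries had deviations correlated at -0.511, 0.519, 0.00652 and -0.364. These values cannot show whether a number marks a shared culture or day, because the lists differ greatly in length. The sign-flip test with the replicate block called 0 genes, its smallest possible p being 0.125. The count of genes marked in at least 1 library, 30, became 14 with windows at gene starts (36 genes only), 16 with −log10 q of at least 2, 0 with at least 5, 17 with at least 10% of the window covered and 4 with 1000 peaks per library. The count of genes with 2 or more marked libraries in both groups, 9, became 4 with gene ends, 2 with gene starts, 1 (Lhx3) and 0 with the 2 stricter minimums, 3 with at least 500 bases, 1 (Gsx2) with at least 10% covered and 0 with 1000 peaks per library. Leaving out 1 library at a time, the first count ran from 26 to 30, the second from 0 to 9, the excess of homeobox over other genes from 9.78 to 15.1 percentage points, the difference between groups from -16.2 to 3.83 points, and the genes called stayed at 0, with 2, 1 and 1 genes at an unadjusted p under 0.05 without control 2, control 3 and dnTCF4 1, none of them in the list. That excess was -0.126 points with −log10 q of at least 5 and 3.79 with at least 2. The difference between groups was -25 points without the 3 shortest lists, where the excess was 21.3. For single genes, 348 of 532 library counts stayed within 1.5 times. The windows, minimums and libraries left out reduce what can be counted by construction; any other cause of these changes was not tested. Depth is unknown, and the 3 shortest lists held no peak at any of the 50 genes.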
